A study of Mus musculus with 16 samples.

Results

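The ephrin and semaphorin guidance genes were followed in RNA sequencing of 16 samples of mouse mammary organoids, multicellular structures grown in culture from breast tissue. The set was every protein-coding gene of the deposited count table whose symbol named an Eph receptor, an ephrin, a semaphorin of classes 3 to 7, a plexin or one of the neuropilins Nrp1 and Nrp2. It held 53 of 55487 gene identifiers: 14 Eph receptors, 8 ephrins, 20 semaphorins, 9 plexins and 2 neuropilins. Of the samples, 3 were wild type (WT), 4 carried mutant PIK3CA, 4 carried mutant HER2 and 5 carried both mutations (double mutant). The PIK3CA product is a lipid kinase that signals to AKT, and HER2 is the receptor tyrosine kinase encoded by Erbb2 in the mouse. The series title names the alleles PIK3CAH1047R and HER2V777L. The source of the WT samples was normal breast and that of every mutant sample a breast tumor, so genotype and tissue source cannot be told apart in any comparison with WT. All groups were cultured in the same kind of medium, with epidermal growth factor, Rspo1 and Noggin. The strain, the age and the promoter that drives each allele were not given in the sources used here. The labels do not say which replicates came from separate animals, so the p-values measure the spread between these samples, which may be technical.

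Eph receptors are receptor tyrosine kinases that bind ephrins on neighbouring cells. Ephrin-As are tethered to the membrane by a lipid anchor and ephrin-Bs span it, and signals pass into both the receptor-bearing and the ephrin-bearing cell. Semaphorins are secreted or membrane-bound ligands of plexins, which control cell adhesion and the cytoskeleton. Neuropilins serve as co-receptors for the secreted class 3 semaphorins and for vascular endothelial growth factors. First known from axon guidance and blood vessel patterning, both systems are also active in epithelia. In the mammary gland, EphB4 with ephrin-B2 and EphA2 with ephrin-A1 are known from studies of ductal growth and tumors.

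Promoter sequence is shown for 3 of the 5 members that differed from WT in all 3 mutant genotypes. They are the receptors Plxnc1 and Plxnd1, which were lower, and the ligand Efnb2, which was higher. Each is the 250 bases upstream of the RefSeq start site on GRCm38.p6, written 5′ to 3′ on the gene's own strand. The Plxnc1 stretch is chr10:94944846-94945095, the Plxnd1 stretch chr6:115995006-115995255 and the Efnb2 stretch chr8:8661243-8661492, all on the minus strand. Capitals mark matches, on either strand, to GGGCGG, the GC box, to GAGGAA, the core of the PU.1 site, and to TATAAA, the box named after its letters.
Plxnc1: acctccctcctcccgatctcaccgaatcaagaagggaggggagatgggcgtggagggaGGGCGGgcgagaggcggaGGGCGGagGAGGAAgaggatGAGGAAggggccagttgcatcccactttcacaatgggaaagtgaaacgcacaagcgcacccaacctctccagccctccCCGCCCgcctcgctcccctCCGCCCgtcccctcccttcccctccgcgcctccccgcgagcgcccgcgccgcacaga
Plxnd1: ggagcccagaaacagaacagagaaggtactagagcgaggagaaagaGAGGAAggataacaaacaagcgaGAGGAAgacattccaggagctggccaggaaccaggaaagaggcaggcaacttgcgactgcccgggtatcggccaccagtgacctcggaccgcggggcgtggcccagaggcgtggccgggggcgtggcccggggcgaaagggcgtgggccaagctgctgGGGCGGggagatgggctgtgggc
Efnb2: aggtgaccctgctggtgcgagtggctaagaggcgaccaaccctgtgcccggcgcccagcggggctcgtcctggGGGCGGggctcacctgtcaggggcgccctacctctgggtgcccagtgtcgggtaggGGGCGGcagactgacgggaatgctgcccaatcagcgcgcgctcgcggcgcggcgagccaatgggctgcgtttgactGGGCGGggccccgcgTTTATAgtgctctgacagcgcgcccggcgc
The Plxnc1 stretch held 4 GC boxes and 2 PU.1 cores, the Plxnd1 stretch 1 GC box and 2 PU.1 cores, and the Efnb2 stretch 3 GC boxes and 1 TATA box. Of the 32851 promoters of this length in the table, 32.7% held a GC box, 23.3% a PU.1 core and 12.4% a TATA box. The sites GTAAACA (FOXO), TGANTCA (AP-1) and CACGTG (E-box) had no match in the 3 stretches, and 3.17%, 6.75% and 6.02% of all promoters held them. GC content was 68.8%, 64.8% and 72.0% for Plxnc1, Plxnd1 and Efnb2, against a median of 52.4% over all promoters. A match describes letters only. The table held promoters of 47 of the 53 members. Plxna4, which was also lower in all 3 mutant genotypes, had none in it. Nrp1, likewise lower, is not shown because its RefSeq start lies 469 bases inside the annotated gene. The Nrp1 stretch held 1 GC box and 1 PU.1 core.

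Total counts per sample ranged from 45545182 to 64168308, so 3 counts corresponded to 0.0468 to 0.0659 CPM. Levels are CPM, read counts scaled to a common library size with edgeR's trimmed mean of M values. Erbb2 stood at 2696 to 4632 CPM in HER2 mutant and 1499 to 2751 CPM in double mutant organoids, against 144.7 to 188.1 CPM in the other samples. The 9 markers of luminal mammary epithelium summed to 1978 to 2321 CPM in WT, 3023 to 3519 in PIK3CA mutant, 1957 to 2656 in HER2 mutant and 2522 to 4390 CPM in double mutant organoids, and the 8 basal markers to 245.3 to 1323 CPM over all samples. The 8 leukocyte markers summed to 1046 to 3570 CPM in WT and to 238.9 to 772.5 CPM in the mutant samples. Cd14 was the largest part of this sum in every mutant sample but HER2 replicate 1. It was at 491.5 to 599.6 CPM in WT, 572.9 to 752.3 in PIK3CA mutant, 122.7 to 371.7 in HER2 mutant and 183.4 to 402.7 CPM in double mutant organoids. Ptprc, the pan-leukocyte phosphatase CD45, was at 8.705 to 43.24 CPM in WT, at 2.735 and 1.812 CPM in HER2 replicates 1 and 2, and at most 0.155 CPM in the other mutant samples. The 7 fibroblast markers summed to 325.6 to 1900 CPM in WT, 65.13 to 471.6 CPM in PIK3CA mutant, 33.96 to 623.7 CPM in HER2 mutant and 26.2 to 58.02 CPM in double mutant organoids, where 1 of them was at 0 in all 5 samples. The 7 endothelial markers summed to 16.13 to 49.2 CPM in WT and 2.538 to 14.25 CPM in the mutants. Double mutant replicates 2 and 3 stood apart from the other 3 on the second principal component of all tested genes (35.6 and 10.9 against -47.8 to -33.6). In bulk samples, fewer cells of a type and less RNA per cell cannot be told apart.

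**Figure D1:**
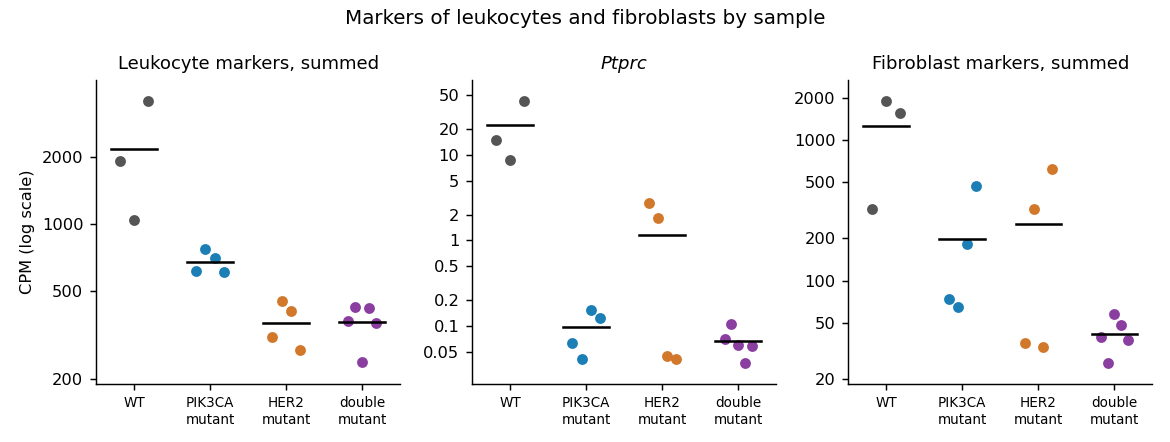
Summed CPM of 8 leukocyte markers, CPM of Ptprc and summed CPM of 7 fibroblast markers in each of the 16 samples, on log axes. Points are samples and bars are genotype means; the 3 WT samples lie above all mutant samples for the leukocyte sum and Ptprc, and the fibroblast sums of WT and of the single mutants overlap.

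Levels of different genes were compared as CPM per kilobase of exon. Epha2 led the Eph receptors at 66.27 CPM per kb on average over the 16 samples, followed by Ephb4 at 50.51 and Ephb3 at 14.44 CPM per kb. Among ephrins, Efna1, the ligand named with EphA2 above, led at 29.49 CPM per kb, ahead of Efna5 at 18.29 and Efnb1 at 11.43 CPM per kb. Plxnb2, a receptor of class 4 semaphorins, was at 63.42 CPM per kb, ahead of Plxna1 at 20.83 and Plxnb1, the receptor of Sema4d, at 19.57 CPM per kb. Sema4d (14.92), Sema4b (13.89) and Sema3f (13.42 CPM per kb) were the highest semaphorins. Of these 12 genes, only Epha2, Ephb4 and Ephb3 passed the test in any of the 7 comparisons.

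**Figure D2:**
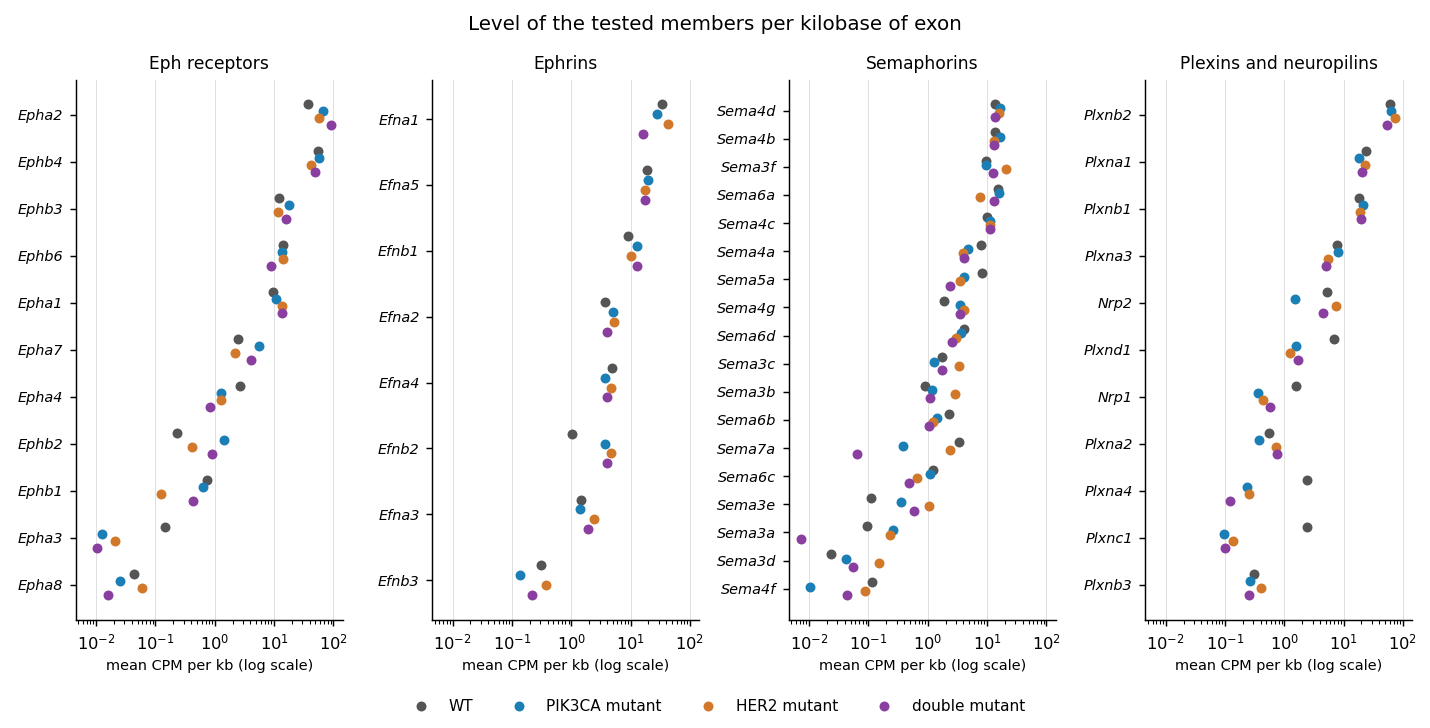
Mean level of the 48 tested members in each genotype, in CPM per kilobase of exon on a log axis, ordered within each family by the mean over all samples. Epha2, Efna1, Plxnb2 and Sema4d head their families, and the WT points of Plxnc1, Plxna4 and Epha3 lie to the right of the 3 mutant points.

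Of the most abundant members, Plxnb2 averaged 476.1 ± 26.2 CPM in WT, 492.4 ± 23.26 in PIK3CA mutant, 578.2 ± 127.2 in HER2 mutant and 424.5 ± 41.08 CPM in the double mutant (SD, n = 3, 4, 4 and 5). Plxnb1 was at 172.0 ± 28.19, 200.1 ± 25.79, 183.9 ± 45.62 and 190.2 ± 39.78 CPM in the same order. For Plxnb1 the ranges of the 4 genotypes overlapped, and for Plxnb2 the double mutant samples (375.1 to 470.9 CPM) lay just below the PIK3CA samples (472.6 to 520.3 CPM), a difference that did not pass the test. Efna1 lay between 51.63 and 67.95 CPM in WT, 41.73 and 62.64 in PIK3CA mutant, 18.96 and 248.3 in HER2 mutant, and 21.82 and 47.74 CPM in double mutant organoids. HER2 replicate 2 alone held the value of 248.3 CPM, and the other 3 HER2 samples were at or below 31.58 CPM. Sema3f, a secreted ligand that signals through Nrp2, reached 237.8 and 151.2 CPM in HER2 replicates 2 and 3 and was at 31.57 and 19.43 CPM in replicates 1 and 4. Summed over the 14 Eph receptors, levels per kilobase were 126.1 to 149.7 CPM per kb in WT, 165.1 to 181.1 in PIK3CA mutant, 114.1 to 175.0 in HER2 mutant and 141.4 to 198.4 CPM per kb in double mutant organoids. The PIK3CA mutant sums lay above all WT sums, and the other ranges overlapped with WT. Luminal marker sums were also higher than in WT in every PIK3CA and double mutant sample, although not every marker was. Esr1 was at 29.65 to 44.03 CPM in WT, 16.15 to 19.75 in PIK3CA mutant and 9.797 to 24.19 CPM in double mutant organoids. The part of luminal markers in the Eph receptor sums was not tested.

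Differential expression was tested with edgeR's quasi-likelihood test over 24252 genes, with Benjamini-Hochberg adjustment within each comparison, and genes with adjusted p under 0.05 are called changed. The test covered 48 members. Epha5, Epha6, Epha10, Sema3g and Sema5b had too few counts, with at most 0.6006 CPM in any sample. Against WT, 6 members changed in PIK3CA mutant organoids (12.5% of the members tested, 4.52% of all genes), 9 in HER2 mutant (18.8%, 10.4% of all genes) and 15 in double mutant organoids (31.2%, 11.8% of all genes). The 3 comparisons share the same 3 WT libraries. Of the changed members, 2 rose and 4 fell in PIK3CA mutant (1.49% and 3.03% of all genes), 3 rose and 6 fell in HER2 mutant (4.75% and 5.63%) and 5 rose and 10 fell in double mutant organoids (5.03% and 6.72%). The median log2 fold change of the 48 members was -0.02, 0.06 and -0.22 in this order, beside -0.03, 0.03 and 0.01 over all genes. Plxnc1, Plxnd1, Plxna4 and Nrp1 fell and Efnb2 rose in all 3 comparisons with WT. Epha2, Epha3, Epha4, Sema5a, Sema6b and Sema7a passed against WT in the double mutant comparison and not in those of the single mutants. Of these, Sema7a alone passed between the double mutant and a single mutant, that of HER2.

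**Figure D3:**
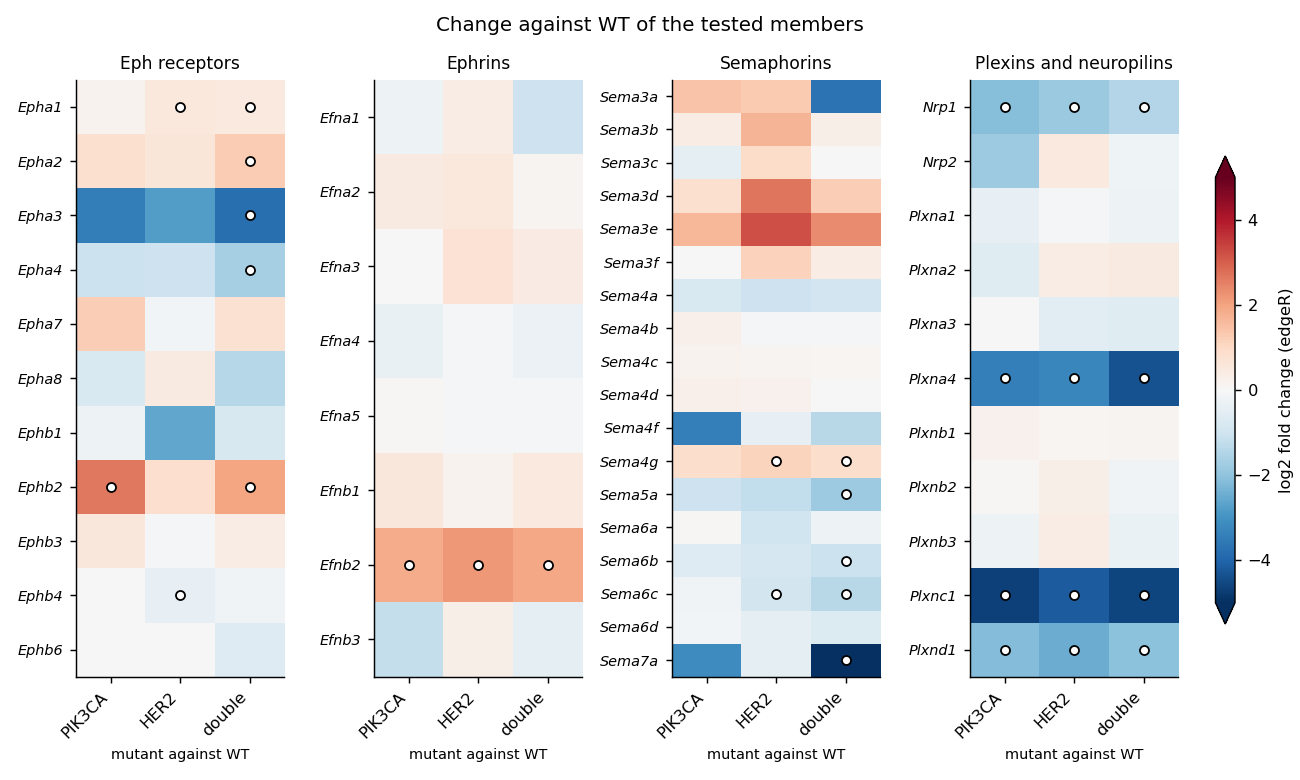
Log2 fold change against WT of the 48 tested members in PIK3CA mutant, HER2 mutant and double mutant organoids (edgeR; red higher, blue lower in the mutant; the color scale ends at 5 in either direction). White circles mark members with adjusted p under 0.05, which number 6, 9 and 15 in the 3 comparisons.

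Of the 9 plexins and 2 neuropilins, Plxnc1, Plxnd1, Plxna4 and Nrp1 fell in all 3 mutant genotypes. Plxnc1, the receptor of Sema7a, was at 13.76, 10.47 and 35.92 CPM in the 3 WT samples. It was at 0.5884, 0.8469, 0.9964 and 0.7502 CPM in PIK3CA mutant, at 1.66, 1.465, 0.4006 and 0.9621 in HER2 mutant and at 0.7624, 0.4405, 0.8637, 1.127 and 0.9334 CPM in double mutant organoids. Every mutant sample lay below every WT sample, and WT replicate 3 was the highest of all. The fall was 25.2-fold in PIK3CA mutant (log2 fold change -4.66 ± 0.50 SE, adjusted p = 0.000306, edgeR), 17.8-fold in HER2 mutant (-4.15 ± 0.49, adjusted p = 0.000296) and 24.2-fold in double mutant organoids (-4.60 ± 0.46, adjusted p = 7.37e-05). Without WT replicate 3 the log2 fold changes were -3.93, -3.43 and -3.87, all still past the threshold. Without HER2 replicates 1 and 2, the mutant libraries with the most Ptprc, the HER2 value was -4.87.

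Plxnd1, the receptor of Sema3e known from vascular patterning, was at 38.14, 38.24 and 74.94 CPM in WT. It was at 8.778, 11.4, 11.62 and 13.38 CPM in PIK3CA mutant, at 10.2, 14.17, 6.008 and 5.773 in HER2 mutant and at 10.27, 7.091, 20.49, 10.29 and 13.24 CPM in double mutant organoids. No mutant sample reached the WT range. Its fall was 4.47-fold in PIK3CA mutant (log2 fold change -2.16 ± 0.37 SE, adjusted p = 0.0029, edgeR), 5.58-fold in HER2 mutant (-2.48 ± 0.37, adjusted p = 0.00132) and 4.11-fold in double mutant organoids (-2.04 ± 0.34, adjusted p = 0.00129). The calls of Plxnc1 and Plxnd1 against WT remained without any single library and under every other alternative run. Without HER2 replicates 1 and 2 the HER2 value of Plxnd1 was -3.10.

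Plxna4, a plexin that pairs with neuropilins and also binds class 6 semaphorins, was at 25.4, 41.12 and 36.75 CPM in WT. It was at 2.783, 2.541, 4.761 and 2.965 CPM in PIK3CA mutant, at 0.3583, 12.91, 0.2893 and 0.7369 in HER2 mutant and at 1.383, 1.343, 1.688, 2.05 and 1.964 CPM in double mutant organoids. All mutant samples lay below WT, and HER2 replicate 2 stood far above the other HER2 samples. The fall was 20.4-fold in double mutant organoids (log2 fold change -4.35 ± 0.89 SE, adjusted p = 0.00469, edgeR), 10.6-fold in PIK3CA mutant (-3.40 ± 0.93, adjusted p = 0.049) and 9.61-fold in HER2 mutant (-3.26 ± 0.93, adjusted p = 0.0357). Without HER2 replicate 2 the HER2 value was -6.21 (adjusted p = 2.17e-06), while leaving out any other of the 7 libraries of that comparison gave an adjusted p of 0.053 to 0.103. The PIK3CA call was lost without any 1 of its 7 libraries (adjusted p from 0.0854 to 0.147) and with upper-quartile scaling (0.0522), and the HER2 call in a fit of only those groups (0.191). A block for the replicate number also ended the PIK3CA call (0.0939).

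Nrp1, the co-receptor of Sema3a and of vascular endothelial growth factor, was at 13.76, 7.124 and 25.17 CPM in WT. It was at 4.389, 3.037, 2.989 and 3.679 CPM in PIK3CA mutant, at 1.735, 6.669, 6.364 and 2.436 in HER2 mutant and at 4.344, 4.489, 4.161, 6.872 and 7.875 CPM in double mutant organoids. Double mutant replicate 5 was above the lowest WT sample, and the single mutants did not overlap with WT. The fall was 4.35-fold in PIK3CA mutant (log2 fold change -2.12 ± 0.46 SE, adjusted p = 0.0142, edgeR), 3.57-fold in HER2 mutant (-1.84 ± 0.46, adjusted p = 0.0206) and 2.77-fold in double mutant organoids (-1.47 ± 0.43, adjusted p = 0.036). All 3 calls were lost without WT replicate 3 (adjusted p = 0.137, 0.159 and 0.297). A block for the replicate number also ended all 3 (0.0551, 0.0544 and 0.0806). The PIK3CA call was also lost without PIK3CA replicate 2 (0.0546), the HER2 call in a fit of only those groups (0.129), and the double mutant call without WT replicate 1 (0.0813) or double mutant replicates 1, 2 or 3 (0.0657, 0.0772 and 0.0724) and with limma at both pseudocounts (0.0634 and 0.0646).

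Leukocyte markers moved in the same comparisons as these receptors. Of the 8 listed, 7 fell against WT in PIK3CA mutant, 5 in HER2 mutant and 7 in double mutant organoids. In the 3 WT samples the leukocyte sum was 1930, 1046 and 3570 CPM, and Plxnc1 and Nrp1 had the same order of samples. Plxnd1 was also highest in WT replicate 3 and nearly equal in the other two, and Plxna4 was highest in WT replicate 2, where the leukocyte sum was lowest. Of the 7 fibroblast markers, 0, 2 and 6 fell in the same comparisons, and of the 5 endothelial markers tested 1, 1 and 2 fell. The part of these markers in the falls of Plxnc1, Plxnd1, Plxna4 and Nrp1 was not tested.

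**Figure D4:**
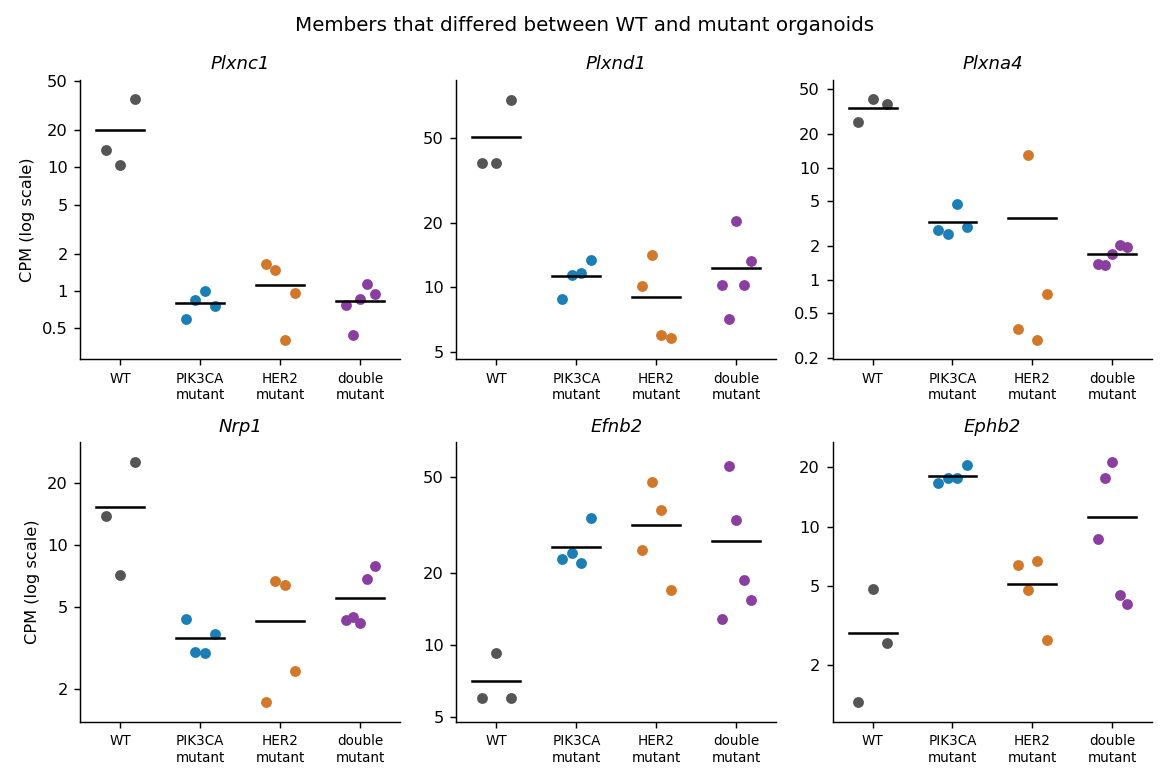
CPM of Plxnc1, Plxnd1, Plxna4, Nrp1, Efnb2 and Ephb2 in each of the 16 samples, on log axes that differ between panels. Points are samples and bars are genotype means; all mutant samples lie below WT for the 3 plexins and above WT for Efnb2.

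Efnb2, the transmembrane ligand of EphB4 and other EphB receptors, rose in every mutant genotype. It was at 6.013, 9.265 and 5.972 CPM in WT, at 22.82, 24.23, 21.92 and 33.65 in PIK3CA mutant, at 24.73, 47.94, 36.52 and 16.99 in HER2 mutant and at 12.8, 55.82, 33.13, 18.55 and 15.36 CPM in double mutant organoids. Every mutant sample was above every WT sample, and double mutant replicates 2 and 3 were the highest of their group. The rise was 3.62-fold in PIK3CA mutant (log2 fold change 1.86 ± 0.47 SE, adjusted p = 0.0325, edgeR), 4.45-fold in HER2 mutant (2.15 ± 0.48, adjusted p = 0.0108) and 3.83-fold in double mutant organoids (1.94 ± 0.46, adjusted p = 0.012). Without double mutant replicates 2 and 3 the double mutant value was 1.14 (adjusted p = 0.0457). The calls were lost without WT replicate 1 (adjusted p = 0.14, 0.0545 and 0.066) and without WT replicate 3 (0.176, 0.0686 and 0.0762), and the PIK3CA call also without each PIK3CA replicate (0.0527 to 0.0835). The other 7 ephrins passed in none of the 7 comparisons by edgeR, and Efnb3 alone of them passed by DESeq2.

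Of the EphB receptors, Ephb2 was at 1.294, 4.823 and 2.569 CPM in WT and at 16.7, 17.56, 17.67 and 20.36 CPM in PIK3CA mutant organoids. It was at 6.431, 4.761, 6.676 and 2.661 CPM in HER2 mutant and at 8.635, 17.6, 21.28, 4.507 and 4.064 CPM in double mutant organoids. The PIK3CA samples formed a tight group above all WT and HER2 samples, and the double mutant spanned both ranges. Ephb2 rose 6.25-fold in PIK3CA mutant (log2 fold change 2.64 ± 0.59 SE, adjusted p = 0.0156, edgeR) and 3.88-fold in double mutant organoids (1.96 ± 0.56, adjusted p = 0.0317). Its HER2 value against WT was 0.83 ± 0.55 (adjusted p = 0.37), and HER2 against PIK3CA mutant gave -1.82 ± 0.51 (adjusted p = 0.054). The PIK3CA call was lost without WT replicates 1 or 3 (adjusted p = 0.0807 and 0.101). The double mutant call was lost without WT replicates 1 or 3 (0.147 and 0.14), without double mutant replicates 2 or 3 (0.0673 and 0.0654) or both (log2 fold change 0.99, adjusted p = 0.191), and in a fit of only those groups (0.0833).

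Ephb4, the main receptor of ephrin-B2, was at 256.4, 265.8 and 252.6 CPM in WT and at 256.8, 255.1, 275.0 and 271.8 CPM in PIK3CA mutant organoids. In HER2 mutant organoids it was at 219.5, 184.3, 197.5 and 172.7 CPM, and in the double mutant at 216.7, 197.9, 224.4, 251.1 and 252.2 CPM. All HER2 samples were below all WT and PIK3CA samples, although the difference was small. Ephb4 was 1.335-fold lower in HER2 mutant than in WT (log2 fold change -0.42 ± 0.12 SE, adjusted p = 0.0334, edgeR) and 1.37-fold lower than in PIK3CA mutant organoids (-0.45 ± 0.11, adjusted p = 0.0287). The call against WT was lost without any library but HER2 replicate 1 (adjusted p from 0.0565 to 0.107), with upper-quartile scaling (0.051), with no filter (0.111) and in a fit of only those groups (0.161). The call against PIK3CA mutant was lost without any PIK3CA replicate or HER2 replicates 2 or 4 (0.0537 to 0.084), with no filter (0.071) and in a fit of only those groups (0.0798). A block for the replicate number ended both calls (0.0672 against WT and 0.0683 against PIK3CA mutant).

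Ephb3, an EphB receptor known for positioning epithelial cells in the intestine, differed between the single mutants. It was at 119.4, 109.9, 124.7 and 112.2 CPM in PIK3CA mutant and at 87.96, 56.46, 66.87 and 98.89 CPM in HER2 mutant organoids, which did not overlap. WT was at 90.57, 77.38 and 71.45 CPM and the double mutant at 97.64, 93.06, 103.3, 108.7 and 116.3 CPM. Ephb3 was 1.503-fold lower in HER2 than in PIK3CA mutant organoids (log2 fold change -0.59 ± 0.15 SE, adjusted p = 0.041, edgeR). That call was lost without any PIK3CA replicate or HER2 replicates 2 or 3 (adjusted p from 0.072 to 0.11), with no filter (0.056) and in a fit of only those groups (0.126). Of the 8 basal markers, 5 fell in HER2 relative to PIK3CA mutant and 4 relative to WT, and their part in the lower Ephb3 and Ephb4 was not tested.

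Of the EphA receptors, Epha2, the receptor of ephrin-A1, was at 143.3, 216.9 and 169.8 CPM in WT. It was at 327.4, 271.2, 327.5 and 305.5 CPM in PIK3CA mutant, at 388.3, 225.4, 324.7 and 142.4 in HER2 mutant and at 243.8, 538.1, 440.0, 462.9 and 428.9 CPM in double mutant organoids. PIK3CA and double mutant samples were above all WT samples, and HER2 replicate 4 was as low as WT. Epha2 rose 2.39-fold in double mutant organoids (log2 fold change 1.26 ± 0.29 SE, adjusted p = 0.0105, edgeR). The single mutants gave 0.80 ± 0.30 (adjusted p = 0.16) for PIK3CA and 0.61 ± 0.29 (adjusted p = 0.204) for HER2, and no difference between mutant genotypes passed. The luminal marker sum was likewise above WT in all PIK3CA and double mutant samples. Of its 9 markers, 0 rose and 1 (Esr1) fell against WT in PIK3CA mutant organoids. In the double mutant, 1 rose (Krt8) and 1 fell (Esr1). The part of these markers in the level of Epha2 was not tested. The double mutant call was lost without WT replicate 1 (adjusted p = 0.0668) or WT replicate 3 (0.0622).

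Epha4, which binds ephrins of both classes, was at 23.11, 21.65 and 19.69 CPM in WT. It was at 13.39, 11.4, 8.303 and 7.323 CPM in PIK3CA mutant, at 18.28, 6.688, 7.388 and 9.048 in HER2 mutant and at 10.85, 4.259, 2.748, 9.717 and 6.436 CPM in double mutant organoids. All mutant samples were below WT. Epha4 fell 3.16-fold in the double mutant (log2 fold change -1.66 ± 0.39 SE, adjusted p = 0.0122, edgeR), a call that no alternative or left-out library ended. The values for PIK3CA and HER2 mutant organoids were -1.09 ± 0.42 (adjusted p = 0.181) and -1.05 ± 0.42 (adjusted p = 0.123).

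Epha3 was low everywhere, at 0.7866, 1.581 and 1.418 CPM in WT and at 0.2128, 0, 0.01963, 0.09236 and 0.1167 CPM in the double mutant. Of the double mutant samples, 1 had no count. Its log2 fold change in the double mutant was -3.78 ± 0.95 SE (adjusted p = 0.0172, edgeR), and the call was lost without WT replicate 3 (0.0677) or without double mutant replicates 2 and 3 together (0.0639), and the value was -4.39 without double mutant replicate 1. PIK3CA mutant samples were at 0.1908, 0, 0.1993 and 0.05358 CPM and HER2 mutant samples at 0.07544, 0.2313, 0 and 0.4094 CPM, all below WT, with log2 fold changes of -3.47 ± 1.01 (PIK3CA, adjusted p = 0.0664) and -2.79 ± 0.98 (HER2, adjusted p = 0.0817). Epha1 was at 40.9, 40.72 and 30.86 CPM in WT, at 38.94, 44.48, 39.75 and 45.26 in PIK3CA mutant, at 49.34, 47.4, 65.05 and 55.13 in HER2 mutant and at 46.26, 58.7, 56.1, 49.62 and 52.58 CPM in double mutant organoids. HER2 and double mutant samples lay above WT, and PIK3CA samples overlapped with it. Epha1 rose 1.45-fold in HER2 (log2 fold change 0.53 ± 0.14 SE, adjusted p = 0.0292) and 1.404-fold in double mutant organoids (0.49 ± 0.14, adjusted p = 0.0302, edgeR). Both calls were lost without WT replicate 1 (0.0584 and 0.0605) or 3 (0.177 and 0.204), the HER2 call without HER2 replicate 3 (0.0737), and the double mutant call without its replicates 2 or 3 (0.0625 and 0.0515). No filter (0.0698 and 0.0693) and fits of only the groups compared (0.126 and 0.0507) also ended them. So did a block for the replicate number (0.0797 and 0.0862). The annotation places Epha1 over part of Zyx, a protein-coding gene, and whether the counts use strand was not given in the sources used here.

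Of the semaphorins, Sema7a, a lipid-anchored ligand of plexin-C1 and integrins, had the lowest log2 fold change of the tested members in the double mutant against WT. It was at 2.01, 16.77 and 14.08 CPM in WT, at 13.79, 6.708, 0.4673 and 10.46 in HER2 mutant and at 0.1064, 0.2098, 0.1963, 0.3879 and 0.1556 CPM in double mutant organoids. PIK3CA mutant samples were at 0.1272, 0.04131, 1.063 and 3.751 CPM. All double mutant samples were below all WT and HER2 samples, while the PIK3CA mutant overlapped with every other genotype. Sema7a fell 51.3-fold in the double mutant against WT (log2 fold change -5.68 ± 1.15 SE, adjusted p = 0.00456, edgeR), which no left-out library or alternative ended. It was 36.8-fold lower in the double than in the HER2 mutant (-5.20 ± 1.11, adjusted p = 0.0239), the 1 member called in that comparison (2.1% of the members tested, 2.5% of all genes). That call was lost without double mutant replicates 1, 4 or 5 (0.0628, 0.0523 and 0.0655) and with limma at pseudocounts of 1 (log2 fold change -4.45, adjusted p = 0.0537) and 0.5 (-4.51, 0.0565). A block for the replicate number in edgeR also ended it (0.0965). Against WT the PIK3CA mutant gave -3.13 ± 1.11 (adjusted p = 0.14), and its difference from the double mutant was not past the threshold (-2.55 ± 1.05, adjusted p = 0.325).

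Sema6c, a transmembrane class 6 semaphorin, was at 6.433, 8.625 and 7.157 CPM in WT and at 5.152, 6.218, 7.927 and 6.948 CPM in PIK3CA mutant organoids. It was at 2.848, 5.281, 4.273 and 3.091 CPM in HER2 mutant and at 2.482, 2.727, 4.181, 2.475 and 2.275 CPM in double mutant organoids. The double mutant lay below all WT and PIK3CA samples, and HER2 below all WT samples. Sema6c fell 2.62-fold in the double mutant against WT (log2 fold change -1.39 ± 0.25 SE, adjusted p = 0.00209, edgeR), which remained in every alternative and without any library, and 1.91-fold in HER2 mutant organoids (-0.93 ± 0.27, adjusted p = 0.0357). It was the 1 member called between the double and the PIK3CA mutant (2.1% of the members tested, 0.672% of all genes), 2.32-fold lower in the double mutant (-1.21 ± 0.23, adjusted p = 0.0301). That call was lost without any of the 9 libraries but double mutant replicate 3 (adjusted p from 0.0587 to 0.138). A block for the replicate number also ended it (0.0829). The HER2 call against WT was lost without any library but HER2 replicate 2 (0.0544 to 0.117), with upper-quartile scaling (0.0583), with no filter (0.0603) and in a fit of only those groups (0.115).

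Sema5a, a transmembrane semaphorin with thrombospondin repeats, was at 109.8, 196.7 and 155.6 CPM in WT. It was at 62.99, 65.03, 100.7 and 75.13 CPM in PIK3CA mutant, at 115.5, 21.41, 58.33 and 64.19 in HER2 mutant and at 43.6, 27.69, 34.92, 47.99 and 65.65 CPM in double mutant organoids. HER2 replicate 1 was inside the WT range and all PIK3CA and double mutant samples were below it. Sema5a fell 3.503-fold in the double mutant (log2 fold change -1.81 ± 0.38 SE, adjusted p = 0.00558, edgeR), and no left-out library or alternative ended the call. PIK3CA and HER2 mutant organoids gave -1.02 ± 0.40 (adjusted p = 0.193) and -1.25 ± 0.40 (adjusted p = 0.0601). Sema6b, a ligand of plexin-A4, was at 8.863, 7.844 and 10.09 CPM in WT, at 6.09, 4.09, 6.576 and 6.001 in PIK3CA mutant, at 3.81, 7.768, 3.939 and 4.217 in HER2 mutant and at 3.918, 4.825, 3.651, 3.196 and 5.347 CPM in double mutant organoids. All mutant samples were below WT. Sema6b fell 2.13-fold in the double mutant (-1.09 ± 0.26, adjusted p = 0.0111), and the call was lost without WT replicate 3 (0.0702). Its values in PIK3CA and HER2 mutant organoids were -0.65 ± 0.27 (adjusted p = 0.224) and -0.86 ± 0.27 (adjusted p = 0.056).

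Of the 7 fibroblast markers, 6 also fell between WT and the double mutant. WT replicate 1, with the lowest fibroblast sum of the WT samples (325.6 CPM against 1900 and 1561), was the lowest WT sample for Sema7a, Sema6c, Sema5a and Plxna4, but not for Sema6b, which was lowest in WT replicate 2, or Epha4, which was highest in WT replicate 1. The 4 HER2 samples had fibroblast sums of 36.27, 321.0, 33.96 and 623.7 CPM. Sema7a was at 13.79, 6.708, 0.4673 and 10.46 CPM in them, and Sema5a at 115.5, 21.41, 58.33 and 64.19 CPM. The 4 PIK3CA samples had fibroblast sums of 73.74, 65.13, 181.3 and 471.6 CPM. Sema7a followed the same order there, at 0.1272, 0.04131, 1.063 and 3.751 CPM. Sema5a did not, at 62.99, 65.03, 100.7 and 75.13 CPM. The part of fibroblast RNA in these results was not tested.

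Sema4g, a transmembrane class 4 semaphorin, was the 1 semaphorin that rose against WT. It was at 16.71, 19.05 and 13.8 CPM in WT, at 33.71, 25.76, 29.54 and 31.28 in PIK3CA mutant, at 57.52, 19.53, 33.18 and 32.92 in HER2 mutant and at 27.13, 26.08, 30.45, 36.45 and 30.3 CPM in double mutant organoids. All mutant samples were above WT. The rise was 2.17-fold in HER2 mutant (log2 fold change 1.11 ± 0.26 SE, adjusted p = 0.0155, edgeR) and 1.82-fold in the double mutant (0.86 ± 0.25, adjusted p = 0.0362), and PIK3CA mutant organoids gave 0.86 ± 0.26 (adjusted p = 0.0778). The HER2 call was lost without WT replicates 1 or 3 (0.0584 and 0.0967) and in a fit of only those groups (0.123). The double mutant call was lost without any WT replicate (0.115, 0.0554 and 0.183) or double mutant replicates 3, 4 or 5 (0.0552, 0.0719 and 0.0547). A block for the replicate number ended it as well (0.0774).

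Nrp2, the co-receptor of Sema3f, rose in HER2 relative to PIK3CA mutant organoids. It was at 14.71, 15.58, 9.831 and 30.54 CPM in PIK3CA mutant and at 44.76, 87.66, 181.2 and 34.47 CPM in HER2 mutant organoids. WT was at 44.63, 49.25 and 93.41 CPM and the double mutant at 20.66, 102.9, 78.85, 39.61 and 27.13 CPM. PIK3CA samples lay below all WT and HER2 samples, while the double mutant reached into both ranges. The difference between HER2 and PIK3CA mutant was 4.92-fold (log2 fold change 2.30 ± 0.58 SE, adjusted p = 0.0373, edgeR), and PIK3CA mutant against WT gave -1.82 ± 0.60 (adjusted p = 0.111). Leaving out PIK3CA replicates 1, 2 or 3 (0.107, 0.109 and 0.11) or HER2 replicate 3 (log2 fold change 1.65, adjusted p = 0.0932) ended the call, as did a fit of only those groups (0.0696). It was also lost with a block for the replicate number (0.0823). With Ephb3 and Ephb4, Nrp2 made 3 members called between the single mutants (6.2% of the members tested, 4.41% of all genes).

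**Figure D5:**
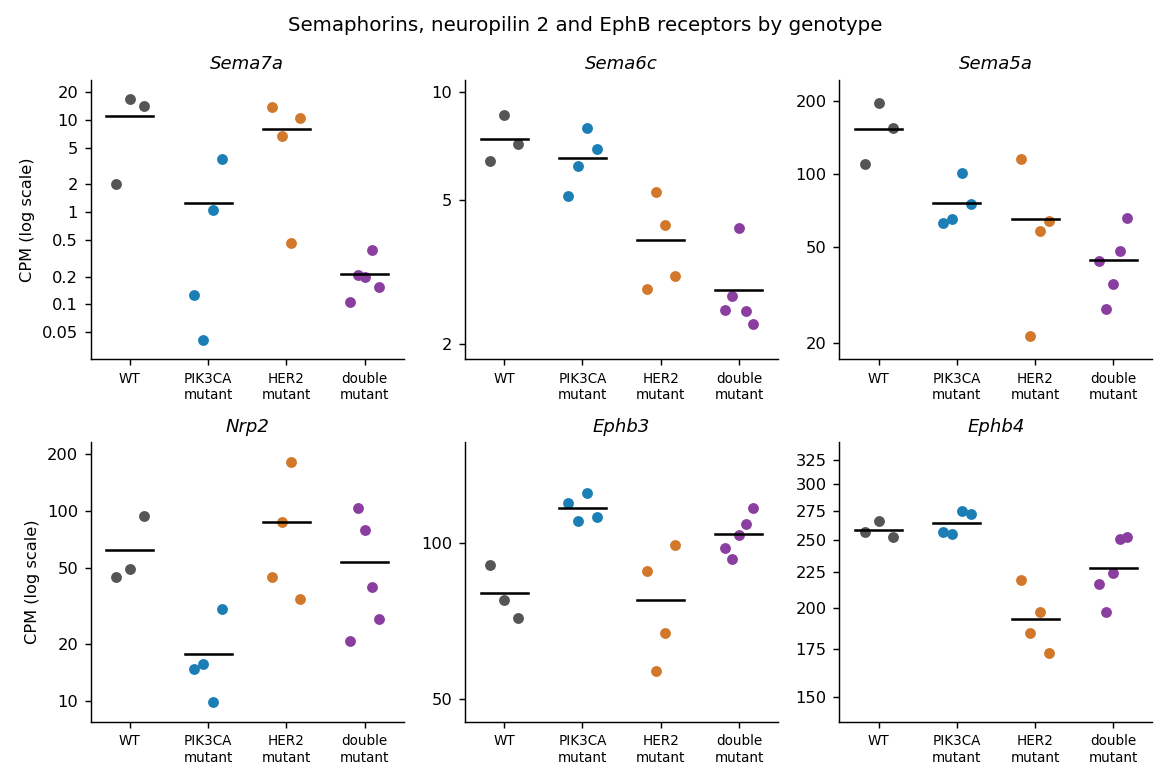
CPM of Sema7a, Sema6c, Sema5a, Nrp2, Ephb3 and Ephb4 in each of the 16 samples, on log axes that differ between panels. Points are samples and bars are genotype means; the 5 double mutant samples of Sema7a lie at 0.1064 to 0.3879 CPM, below all WT and HER2 mutant samples.

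The interaction asked whether the log2 change of the double mutant differed from both single-mutant changes added together, and 2 members passed (4.2% of the members tested, 1.06% of all genes). Plxnc1 gave 4.21 ± 0.64 SE (adjusted p = 0.0071, edgeR). Its single-mutant changes of -4.66 and -4.15 add up to a larger fall than the -4.60 of the double mutant. All 3 mutant genotypes had means of 0.7955 to 1.122 CPM. Without WT replicate 3 the Plxnc1 interaction was 3.48 (adjusted p = 0.0339), and without HER2 replicates 1 and 2 it was 4.93. Plxnd1 gave 2.60 ± 0.49 (adjusted p = 0.0207), with means of 9.038 to 12.28 CPM in the mutants. The Plxnd1 call was lost without WT replicate 3 (adjusted p = 0.0875) and without PIK3CA replicates 1, 2 or 3 (0.0502, 0.0503 and 0.0507), and the value was 3.22 without HER2 replicates 1 and 2. Both values were positive, and the median over the members was -0.17, beside 0.01 over all genes. With a block for the replicate number both interaction calls were lost (adjusted p = 0.0603 for Plxnc1 and 0.11 for Plxnd1).

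Pairs of libraries were also left out together, an alternative chosen after seeing the data. Double mutant replicates 2 and 3 stood apart on the second principal component, and HER2 replicates 1 and 2 held the most Ptprc of the mutant libraries. Without double mutant replicates 2 and 3, 10 members differed from WT in the double mutant (2 higher and 8 lower), all among the 15. Beyond the losses named above, the calls of Epha1 (adjusted p = 0.11), Nrp1 (0.15) and Sema4g (0.0642) against WT and of Sema7a against HER2 mutant (0.0636) were lost. Without HER2 replicates 1 and 2, 14 members differed from WT in HER2 mutant organoids (6 higher and 8 lower), with 8 of the 9 among them. Sema6c was the 1 of the 9 lost (adjusted p = 0.0549). Ephb3 (0.122) and Nrp2 (0.0511) were lost between the single mutants and Sema7a between the double and the HER2 mutant (0.0869).

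By subfamily, 4 of the 6 EphA receptors tested, 3 of 5 EphB receptors, 1 of 3 ephrin-Bs and 0 of 5 ephrin-As passed in at least 1 comparison. Both neuropilins and both of the plexins of classes C and D passed, with 1 of 4 plexin-As and 0 of 3 plexin-Bs. Among ephrin-As and plexin-Bs, 1 and 2 genes had an unadjusted p under 0.05 in at least 1 comparison, and DESeq2 called 0 of either. Of the semaphorins, 0 of 6 secreted class 3 members passed by edgeR, although 5 had an unadjusted p under 0.05 and DESeq2 called 5. The others were 1 of 6 in class 4, 1 of 1 in class 5, 2 of 4 in class 6 and the 1 of class 7. In all, 18 members (37.5% of those tested) passed at least once, where 19.1% of all tested genes did, and 30 tested members passed in none of the 7 comparisons. Against WT, log2 fold changes of these 30 ranged from -3.42 (Sema4f) to 1.67 (Sema3e) in PIK3CA mutant organoids, from -2.58 (Ephb1) to 3.21 (Sema3e) in HER2 mutant organoids and from -3.67 (Sema3a) to 2.37 (Sema3e) in the double mutant. At these ends the adjusted p was 0.0842, 0.435, 0.0626, 0.066, 0.199 and 0.138 in the order given (edgeR). These 4 genes are named because they mark the ends of the range.

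A list of 49 other genes of the 2 pathways held effectors, co-receptors and modulators, of which 48 were tested. In PIK3CA mutant organoids 1 rose and 2 fell against WT (beside 1.49% and 3.03% of all genes), in HER2 mutant 2 rose and 8 fell (4.75% and 5.63%), and in the double mutant 1 rose and 9 fell (5.03% and 6.72%). These were 6.25%, 20.8% and 20.8% of the list, beside 4.52%, 10.4% and 11.8% of all genes called in either direction. The median log2 fold change of the list was 0.06, -0.09 and 0.06. Ptprc, which stands in this list and among the leukocyte markers, fell in all 3 (log2 fold changes of -7.84, -4.26 and -8.36), and Cd72, a leukocyte receptor of Sema4d, also fell in all 3 (-1.28, -1.13 and -1.001, adjusted p = 0.0324, 0.0368 and 0.0425, edgeR). Timd2, a receptor of Sema4a, rose in PIK3CA mutant organoids from 8.03 ± 1.59 to 24.73 ± 4.75 CPM (log2 fold change 1.62 ± 0.39 SE, adjusted p = 0.0228). In HER2 mutant organoids Pdzrn3, a PDZ protein listed with the ephrin effectors and modulators, rose from 59.13 ± 6.40 to 169.7 ± 72.71 CPM (1.52 ± 0.33, adjusted p = 0.00969). Nrcam, a cell adhesion molecule that joins neuropilin complexes, fell there from 7.28 ± 1.77 to 1.62 ± 1.06 CPM (-2.17 ± 0.54, adjusted p = 0.02), and it also fell in the double mutant (-1.78 ± 0.50, adjusted p = 0.0298). In the double mutant Farp1, a guanine nucleotide exchange factor linked to plexins, fell from 259.3 ± 29.94 to 163.6 ± 35.01 CPM (-0.66 ± 0.16, adjusted p = 0.0117), and it also fell in HER2 mutant organoids (-0.58 ± 0.17, adjusted p = 0.0367). Kdr, a vascular endothelial growth factor receptor, was below 1 CPM on average in all genotypes (0.6696 in WT, 0.05624 in the double mutant, adjusted p = 0.0185).

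Between mutant genotypes, Ngef was the pathway gene with the lowest adjusted p in 2 comparisons. It encodes ephexin-1, an exchange factor that acts downstream of EphA receptors. Ngef averaged 34.54 ± 1.94 CPM in WT, 48.69 ± 10.52 in PIK3CA mutant, 20.42 ± 8.21 in HER2 mutant and 17.83 ± 3.39 CPM in the double mutant (SD, n = 3, 4, 4 and 5). Relative to PIK3CA mutant it fell in the double mutant (log2 fold change -1.45 ± 0.23 SE, adjusted p = 0.013, edgeR) and in HER2 mutant organoids (-1.25 ± 0.25, adjusted p = 0.0107). L1cam, an adhesion molecule of the Nrp1 receptor complex, was higher in HER2 than in PIK3CA mutant organoids (2.93 ± 0.66, adjusted p = 0.0213). It averaged 7.11 ± 6.04 CPM in WT, 1.49 ± 0.42 in PIK3CA mutant and 11.37 ± 10.1 CPM in HER2 mutant organoids. Dpysl5, a collapsin response mediator protein, fell from 34.52 ± 7.26 CPM in PIK3CA to 4.51 ± 6.34 CPM in HER2 mutant organoids (-2.94 ± 0.74, adjusted p = 0.0352). Between the double and the HER2 mutant, Arhgef15, an exchange factor that binds EphA4, rose from 0.27 ± 0.18 to 0.98 ± 0.15 CPM (1.86 ± 0.43, adjusted p = 0.0331), while Ptprc fell (-4.10 ± 0.98, adjusted p = 0.0405). No gene of the list passed in the interaction by edgeR, where 11 had an unadjusted p under 0.05 and DESeq2 called 1.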

How the data were processed

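RNA was sequenced from 16 mouse mammary organoid samples. Per the submitters' processing notes, the tools were bcl2fastq 2.20, STAR 2.0.4b, Subread featureCounts 1.4.5 and DESeq2 1.33.5, with the build mm10; the annotation and strandedness were not given in the sources used here. The authors deposited whole-number read counts per Ensembl gene and a table of normalized signal values, each equal to its count over a median-of-ratios size factor (largest relative difference 5.55e-10, checked here). Of 55774 entries, 287 repeated an identifier with identical counts and were dropped.

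Counts were tested with edgeR 4.0.16 in R 4.3.3 (filterByExpr, TMM, genotype as the only factor in 1 fit of the 16 samples, two-sided quasi-likelihood test), with Benjamini-Hochberg adjustment over 24252 genes and a threshold of 0.05. Standard errors are the log2 fold change over the square root of F. DESeq2 1.42.0 and limma 3.58.1 on log2 of the normalized value plus 1 or 0.5 were alternatives, with other scalings, no filter, fits of only the groups compared, a block for the replicate number and leaving out each sample. The edgeR script was tested on simulated data. Exon lengths and overlaps came from GENCODE M21 (GRCm38), where 30 of the 53 members overlap another gene, 3 of them (Epha1, Ephb1 and Ephb4) a protein-coding gene. No pair of replicates was a duplicate: their counts differed by a chi-square of 22.29 to 458.8 per degree of freedom. The lowest value was that of double mutant replicates 4 and 5, beside 110.1 to 381.8 for the other double mutant pairs. The labels do not say whether these replicates came from the same animal.

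The members and lists were chosen with earlier results of these data known. Values in every sample are given for members with an adjusted p under 0.05 in any comparison and a mean of at least 1 CPM in a genotype, at most 20. Levels are also given for the 3 members of each family with the highest CPM per kilobase. Of the pathway list, up to 3 genes with the lowest adjusted p per comparison were named. Depth was 45545182 to 64168308 counts per sample.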

Additional observations from a re-analysis of the deposited data

Results flagged for a closer look

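Among the members with per-sample values, 81 pairs of a gene and a genotype of 4 or 5 samples were checked for a sample far from the others, and 4 stood out, where chance flags about 1 in 20. HER2 replicate 2 held 3 of them: Efna1 at 248.3 CPM against 18.96 to 31.58 CPM in the other HER2 samples, Plxna4 at 12.91 CPM against 0.2893 to 0.7369 CPM, and Sema6b at 7.768 CPM against 3.81 to 4.217 CPM. Sema6c was at 4.181 CPM in double mutant replicate 3 and at 2.275 to 2.727 CPM in the other double mutant samples. The interaction passed the test for Plxnc1 (4.212 on the log2 scale) and Plxnd1 (2.600): the change from WT to double mutant differed from both single-mutant changes added together. Each of these changes is also one from normal breast to tumor, and mutation and source cannot be told apart in it. With a replicate block neither call remained (adjusted p = 0.0603 and 0.11), and that of Plxnd1 was lost in 4 fits without 1 sample.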

How the results depend on the processing

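The 37 calls of named members were each recomputed under every setting that applied, which made 627 recomputations in all. In 480 of these the call stayed past the threshold, in 147 it was no longer past it and in 0 it reversed. Of the calls, 11 were kept in every fit without 1 sample and in all 8 other alternatives (7 for the interaction). Of the 30 calls against WT and the 2 of the interaction, 15, 5 and 20 were lost without WT replicates 1, 2 and 3. The 20 include the interaction call of Plxnd1, and all others lost here were against WT. Counts of called members moved as follows. In PIK3CA mutant against WT (6) DESeq2 gave 11, the fit of only those groups 21, and leaving out 1 sample 2 to 5. In HER2 mutant against WT (9) these were 16, 3 and 2 to 11, with 14 without HER2 replicates 1 and 2. In the double mutant against WT (15) leaving out 1 sample gave 7 to 14. Between double and HER2 mutant (1) DESeq2 gave 2, limma 0 with either pseudocount, either pair of left-out libraries 0, and leaving out 1 sample 0 to 3. Between double and PIK3CA mutant (1) leaving out 1 sample gave 0 or 1. Between HER2 and PIK3CA mutant (3) DESeq2 gave 10, the fit of only those groups 1, limma 5 with either pseudocount, and leaving out 1 sample 0 to 5. In the interaction (2) DESeq2 gave 4, leaving out double mutant replicates 2 and 3 gave 5, leaving out HER2 replicates 1 and 2 gave 4, and leaving out 1 sample 1 to 5; it has no fit of only 2 groups. The cause of these moves was not tested. Same-numbered samples did not deviate together in every pair (correlations from -0.163 to 0.273). Between HER2 and double mutant all were positive (0.071 to 0.273, mean 0.157, beside -0.041 for differently numbered samples). Between WT and PIK3CA mutant they were 0.039 to 0.046 (beside -0.014), and the means of the other genotype pairs were -0.052 to -0.005. Whether the number marks a shared batch or animal was not tested. With a replicate block, 4, 6 and 12 members were called against WT, 2 between the single mutants, and 0 in each of the other 3 comparisons, and 14 calls were lost. Upper-quartile scaling moved the median of all genes between HER2 and PIK3CA mutant from 0.07 to 0.12 and the split of all genes called from 536 higher and 533 lower to 655 and 442, and between double and HER2 mutant from 249 and 357 to 191 and 441. Depth limited Epha3, which had 0 counts in 3 mutant samples, and the 5 members not tested.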

Other observations

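Sema3a, a secreted repulsive ligand that binds Nrp1, was chosen here after its values were seen. It was at 12.54 CPM in PIK3CA replicate 4 and 10.83 CPM in HER2 replicate 4, the samples with the highest fibroblast marker sums of their genotypes (471.6 and 623.7 CPM). In PIK3CA replicates 1 and 2 it was at 0 and 0.02066 CPM, beside fibroblast sums of 73.74 and 65.13 CPM, and in HER2 replicates 1 and 3 at 0.05658 and 0.04451 CPM, beside 36.27 and 33.96 CPM. All 5 double mutant samples had 0.01847 to 0.1888 CPM of Sema3a and fibroblast sums of 26.2 to 58.02 CPM. The highest WT sample for both was replicate 2, with 2.902 CPM of Sema3a and a fibroblast sum of 1900 CPM. WT replicates 1 and 3 had 0.1748 and 0.8675 CPM of Sema3a beside fibroblast sums of 325.6 and 1561 CPM. WT replicates 2 and 3 thus had less Sema3a than PIK3CA replicate 4 and HER2 replicate 4 at higher fibroblast sums. Sema3a passed in none of the 7 comparisons by edgeR, and the part of fibroblast RNA in its levels was not tested. HER2 replicate 2 also had the highest Sema3e of all samples, at 26.75 CPM, where the other 3 HER2 samples had 0.2263 to 10.04 CPM. Sema3e is the ligand of plexin-D1.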
